A study of Onthophagus taurus with 66 samples.

Results

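The lateral anterior head (LatA) was compared with the medial anterior head (MA) of *Onthophagus taurus*, a horned dung beetle, in females and males together. Every LatA and MA library of the series was taken by its label, which gave 33 of 66 libraries from 11 animals, 5 females and 6 males. The left and right LatA libraries of an animal were summed and set against the MA library of the same animal, so that 22 profiles were compared as 11 matched sets. The other 33 libraries, of the lateral posterior (LatP) and medial posterior (MP) head, were used only to show where the anterior difference departs from the posterior one.

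The animals were pre-pupae of laboratory colonies, taken shortly before the pupal molt and given no treatment that the labels name, and each library is 1 piece of dorsal head epithelium of 1 animal, freed of the eye, the labrum and the tissue beneath. Males of this species form their horns in the posterior head, and the anterior head of either sex carries none. The comparison addresses whether the flat anterior head is divided transcriptionally along its medial to lateral axis. In bulk tissue, fewer cells of a kind and less RNA per cell cannot be told apart.

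The insect head is laid out by transcription factors and secreted signals that are first used in the embryo. Wnt ligands such as *wingless* and *Wnt6* act through Frizzled receptors, Dishevelled and the Axin complex, and Hedgehog acts through the transcription factor Cubitus interruptus. Shortly before the molt the same epidermis also produces cuticular proteins for the next cuticle, so that signals and cuticle genes are read together in this tissue.

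In units of 1000000 counts, library totals ranged from 11.2 to 15.7 with a median of 12.9, and summed LatA profiles held 24.5 to 30.4 against 11.6 to 15.1 in MA. Levels are counts per 1000000 (CPM) after TMM scaling, and 3 counts, taken as the floor of detection, are 0.187 to 0.273 CPM in MA. A log2 fold change (log2FC) is positive where LatA is higher. A transcript was called at an adjusted p under 0.05 in the quasi-likelihood F-test of edgeR with the animal as a replicate block, adjusted over all transcripts tested.

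On an axis from MA to LatA, the MA library of male 1 lay among the LatA libraries of the other animals, but not all single transcripts followed. Each library was placed on the axis from MA (0) to LatA (1) that the other animals define, over the 500 transcripts with the largest difference, a placement that uses the labels of the other animals and is a description. In the 10 other animals, MA libraries lay between 0.169 and 0.444 and LatA libraries between 0.550 and 1.06, so the regions did not overlap. In male 1 the MA library lay at 1.01, the left LatA library at 0.644 and the right LatA library at 0.477. Its MA library was within the range of the LatA libraries, its left LatA library was also within that range, and its right LatA library lay between the ranges. The same animal had 503 CPM of a neuropeptide-like 3 transcript in MA, 18.7 CPM in right LatA and 627 CPM in left LatA, where the other 10 animals held 43.2 to 140 CPM in MA, 777 to 2554 CPM in right LatA and 507 to 1924 CPM in left LatA. By single library, other transcripts in MA of male 1 lay outside the LatA range of the other animals. *cap'n'collar* was at 0 CPM against 1.70 to 96.9 CPM in their left LatA and 4.60 to 108 CPM in their right LatA. *Wnt6*, at 19.6 CPM, was within their MA range of 11.4 to 30.4 CPM. It was below their left LatA range, which started at 20.9 CPM, and their right one, which started at 28.6 CPM. The Sp8 transcript XM_023050882.1, at 0.558 CPM, was within their LatA range, 0.0654 to 6.96 CPM on the left and 0.368 to 14.1 CPM on the right. It was below that range only where the sides were summed, at 0.536 CPM against 1.48 to 7.35 CPM. No library was relabelled. Male 1 is kept in the main values, and values without it are given for the called transcripts that are named and for the tests between sexes and between the anterior and the posterior head.

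**Figure D1:**
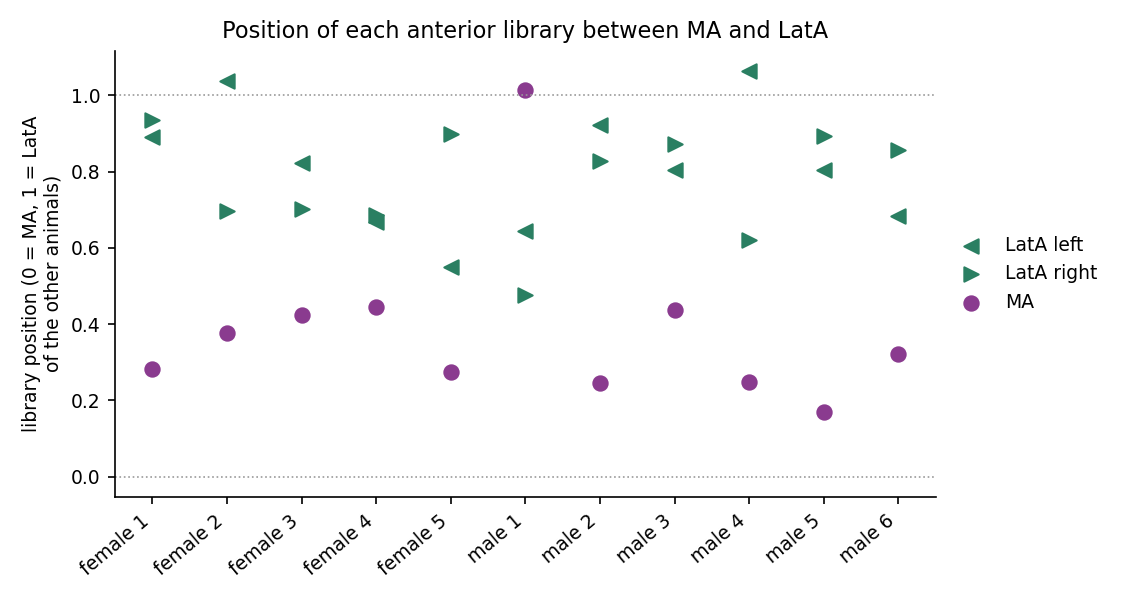
Position of each of the 33 anterior libraries on the axis from MA (0) to LatA (1) of the other animals (vertical axis, no unit), by animal. Triangles are the left and right LatA libraries and circles the MA library; in male 1 the MA circle is at 1.01, above its LatA triangles at 0.644 and 0.477, and in the other 10 animals every circle is below both triangles.

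Few transcripts separated the regions. Of 13554 transcripts tested, 40 (0.295%) were called, of which LatA had the higher level in 21 (0.155%) and MA in 19 (0.14%), and 1282 (9.46%) had an unadjusted p under 0.05. At the thresholds that the study set, which ask for an absolute log2FC over 2 at an adjusted p under 0.001, edgeR called 0 (0%). The study used them with DESeq2, with the sexes apart and left and right as replicates. It reported almost no differential expression between LatA and MA, so the counts are of unlike tests. Among the 21, the absolute log2FC ranged from 0.502 to 6.68 with a median of 1.44, and 19 were higher in LatA in at least 10 of 11 animals. Among the 19 the range was 0.284 to 2.33 with a median of 0.934, and all 19 were higher in MA in at least 10 animals.

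Without male 1, edgeR called 146 of 13478 transcripts (1.08%), LatA having the higher level in 68 (0.505%) and MA in 78 (0.579%), and 7 (0.0519%) passed the stricter thresholds. All 40 were among the 146. With another animal left out in turn, the count ranged from 12 to 28. When each of the 11 animals was left out in turn, 11 of the 40 were called every time, and 10 of the 40 were called only in the fit without male 1. DESeq2 with the same block called 558 of the 13554 transcripts (4.12%), 39 of the 40 among them.

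The secreted Wnt ligands *Wnt6* and *wingless* were higher in LatA. *Wnt6* (XM_023058527.1, LOC111424833) ranged from 25.3 to 85.8 CPM in LatA with a median of 39.7, and from 11.1 to 30.0 CPM in MA with a median of 18.7. LatA was above MA in every animal, and 9 of 11 LatA values were above the highest MA value. The log2FC was 1.33 ± 0.19 (SE, n = 11 animals, edgeR adjusted p = 0.016), and 1.39 ± 0.20 without male 1 (edgeR adjusted p = 0.0079). Of the 11 fits that each left out an animal, the one without female 5 lost the call (edgeR adjusted p = 0.053).

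*wingless* (XM_023058498.1, LOC111424810), the founding member of the family in *Drosophila*, ranged from 4.45 to 24.3 CPM in LatA with a median of 11.5, and from 1.93 to 9.10 CPM in MA with a median of 3.94. It was higher in LatA in 10 of 11 animals, the exception being male 1 with 4.45 CPM in LatA and 5.44 CPM in MA. The log2FC was 1.40 ± 0.23 (SE, n = 11, edgeR adjusted p = 0.032), and 1.56 ± 0.18 without male 1 (edgeR adjusted p = 0.0022). Leaving out any 1 of the other 10 animals ended the call, with edgeR adjusted p-values up to 0.087.

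*Wnt6* and *wingless* neighbour each other in the assembly IU_Otau_3.0, where 1 annotated gene lies between them. In females *Wnt6* had a median of 39.7 CPM in LatA and 11.7 in MA, and in males 41.5 in LatA and 23.2 in MA. For *wingless* the medians were 10.8 and 2.52 CPM in females and 11.6 and 5.60 CPM in males. Fitted in each sex apart, the log2FC was 1.75 in females and 0.99 in males for *Wnt6*, and 1.90 and 0.99 for *wingless*. In the 5 males other than male 1 it was 1.05 ± 0.24 for *Wnt6* and 1.25 ± 0.22 for *wingless* (SE, edgeR adjusted p = 0.22 and 0.11). The male minus female difference of the log2FC was -0.76 and -0.91, and neither passed the test of that difference (edgeR unadjusted p = 0.041 for each; edgeR adjusted p = 0.98). Without male 1 the difference was -0.69 and -0.64 (edgeR unadjusted p = 0.078 and 0.064, edgeR adjusted p = 0.97).

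The rest of the Wnt pathway list was not called. The list held 6 transcripts with a name from the study's tables, all 6 tested, of which LatA had the higher level in 2 called ones and MA in 0, beside 0.155% and 0.14% of all transcripts tested. Its median log2FC was 0.41, beside 0.07 over all transcripts tested. The receptor *frizzled 4* (XM_023052917.1) had medians of 6.14 CPM in LatA and 6.83 in MA, and *dishevelled* (XM_023050771.1), which passes the signal on, 21.3 and 20.2 CPM. *axin* (XM_023049346.1), a scaffold of the complex that breaks down beta-catenin, had medians of 14.2 and 11.4 CPM with a log2FC of 0.25 ± 0.17 (SE, n = 11, edgeR adjusted p = 0.70). The sum over the transcripts of its gene had a log2FC of 0.35 ± 0.07 and was called (edgeR adjusted p = 0.042). Names were available only for transcripts that the study had listed from these animals, so counts over lists are not independent evidence of a direction.

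A pair of transcripts named after secreted proteins was higher in LatA, at high levels in both regions. One is annotated by NCBI as neuropeptide-like 3 (XM_023046186.1). Its best *Drosophila* hit is an uncharacterized protein, and the study's table marks it as putatively restricted to the taxon. It ranged from 285 to 1828 CPM in LatA with a median of 970, and from 43.0 to 483 CPM in MA with a median of 103. Male 1 gave both the lowest LatA value and the highest MA value, and in the other 10 animals the lowest LatA value was 666 CPM and the highest MA value 136 CPM. The log2FC was 3.35 ± 0.44 (SE, n = 11, edgeR adjusted p = 0.011) and was called in all 11 fits with an animal left out. Without male 1 it was 3.62 ± 0.24 (edgeR adjusted p = 0.00016).

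The transcript annotated as vitelline membrane protein Vm26Ab-like (XM_023046184.1, LOC111414747), named after an eggshell protein of *Drosophila*, ranged from 511 to 2311 CPM in LatA with a median of 989. In MA it ranged from 34.4 to 642 CPM with a median of 104. Regions overlapped only through male 1. The log2FC was 3.15 ± 0.47 (SE, n = 11, edgeR adjusted p = 0.019) and 3.42 ± 0.35 without male 1 (edgeR adjusted p = 0.0015), and of the 11 fits with an animal left out, those without male 1, male 5, female 2 and female 3 kept the call, with edgeR adjusted p-values up to 0.066 in the others.

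The neighbours of this gene were not called. Within 6 coding genes on either side of it in IU_Otau_3.0, 6 transcripts of other genes were tested, a set chosen after its values were seen. All 6 had a higher level in LatA in at least 6 of 11 animals, with log2FC values from -0.05 to 2.20, and the lowest edgeR adjusted p was 0.26. Another neuropeptide-like 3 transcript, XM_023046178.1, was among them with mean levels of 2.62 CPM in LatA and 2.14 CPM in MA. Transcripts of such families can share reads that the counting divides, so the level of each is uncertain to that extent.

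**Figure D2:**
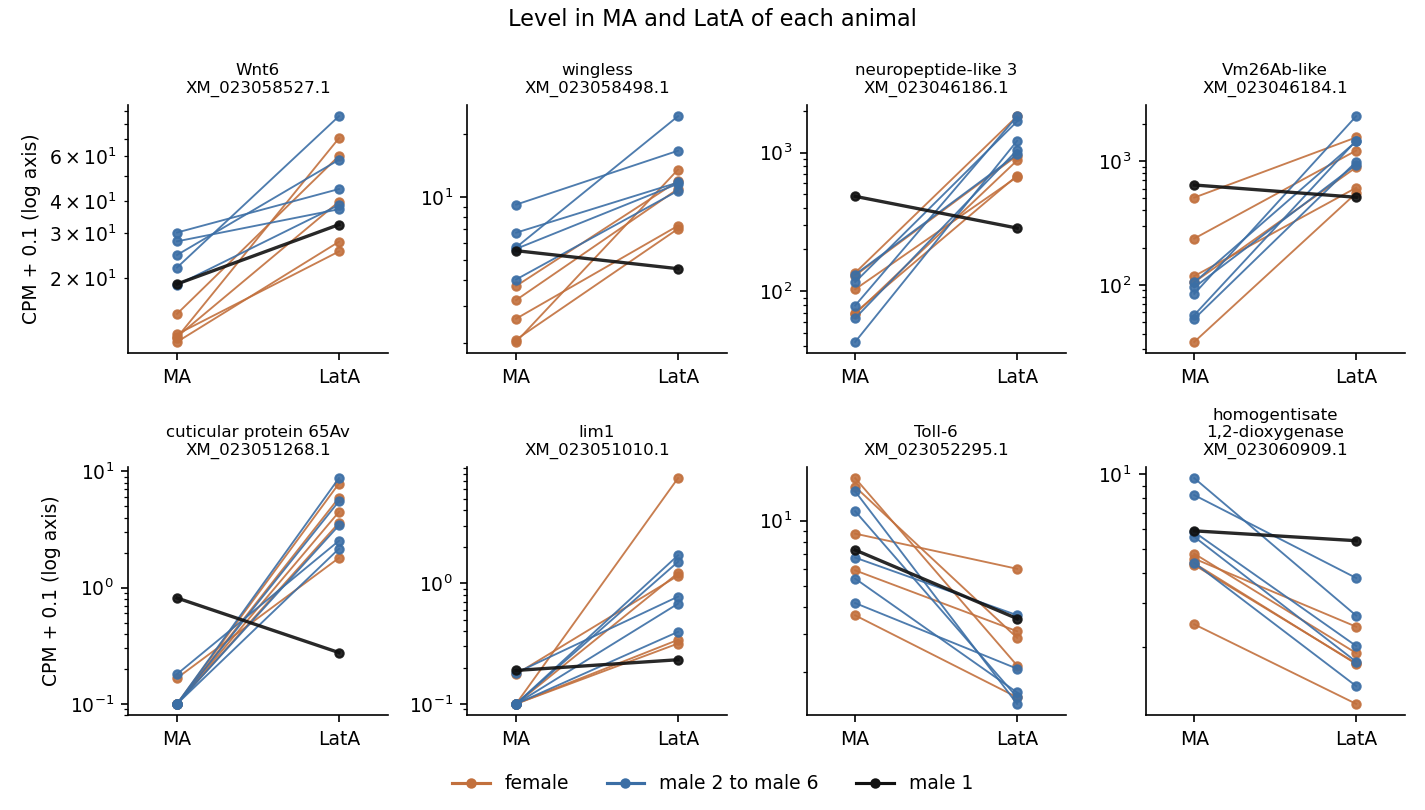
Level of 8 transcripts in MA and LatA of each animal (vertical axis, CPM + 0.1, log axis); each line joins the MA and the summed LatA profile of 1 animal, with females in orange, males in blue and male 1 in black. *Wnt6* is higher in LatA in all 11 animals, *wingless* and the neuropeptide-like 3 transcript in 10 of 11, and Toll-6 and homogentisate 1,2-dioxygenase are higher in MA in all 11; the black line of male 1 slopes the other way for *wingless*, neuropeptide-like 3, Vm26Ab-like and cuticular protein 65Av.

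Several transcripts of LatA were close to the floor in MA. The *lim1* transcript (XM_023051010.1), which encodes a LIM-homeodomain transcription factor, ranged from 0.132 to 7.31 CPM in LatA with a median of 0.674, and from 0 to 0.0893 CPM in MA. The whole MA group held 3 counts of it, against 408 in LatA, a depth-scaled ratio of 67.5 with a 95% exact interval of 22.9 to 328 that covers counting error only. LatA and MA did not overlap, but the lowest LatA value was at the floor, with 3 counts in male 1, whose MA held 1. Female 5 gave 218 of the 408 counts. The test gave an edgeR adjusted p of 0.036, and 0.0053 without male 1, and the call was lost when any 1 of the other 10 animals was left out, with edgeR adjusted p-values up to 0.11.

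Cuticular protein 65Av (XM_023051268.1, LOC111418647), a structural cuticle protein, ranged from 0.176 to 8.63 CPM in LatA with a median of 3.51. It was at 0 in 8 of 11 MA profiles and reached 0.714 CPM there in male 1, where LatA had 0.176 CPM. In the other 10 animals LatA ranged from 1.70 to 8.63 CPM and MA from 0 to 0.0802 CPM, so the regions did not overlap. The log2FC was 6.68 ± 1.11 (SE, n = 11, edgeR adjusted p = 0.032), and the edgeR adjusted p was 0.00074 without male 1. It too was called in no other fit with an animal left out, with edgeR adjusted p-values up to 0.094.

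The unnamed transcript XM_023048163.1 held 2 counts in the whole MA group and 457 in LatA, where it ranged from 0.176 to 3.46 CPM. Its depth-scaled ratio was 113 with a 95% exact interval of 31.2 to 939. The groups did not overlap, but the lowest LatA value was near the floor, with 4 counts in male 1. This transcript was called by edgeR with all animals (adjusted p = 0.0048, and 0.0020 without male 1). It was also called in each of the 11 fits with an animal left out. XM_023059473.1 (LOC111425451), also unnamed, had a log2FC of 6.32 ± 0.97 (SE, n = 11, edgeR adjusted p = 0.031) and was called only in the fits without female 1 or male 1, with edgeR adjusted p-values up to 0.51 in the others. Without male 1 the log2FC was 6.15 ± 1.05 (SE, n = 10, edgeR adjusted p = 0.026). It was at 0 in 10 of 11 MA profiles and at 3.36 CPM in that of male 6, and the sum over the transcripts of its gene had a log2FC of -0.04 ± 0.05. Whether the transcripts of that gene differed in use, or in how the counting divided their reads, was not tested. XM_023063636.1 (LOC111428198), named after its values were seen, was called with a log2FC of 5.57 while its gene sum was not (log2FC 0.98 ± 0.65; edgeR adjusted p = 0.64). Without male 1 its log2FC was 5.65 (edgeR adjusted p = 0.012). The reference gave a gene for 31 of the 40 called transcripts, and 3 of the 31 had other transcripts in the files.

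*ladybird early* (XM_023060332.1, LOC111426002), a homeobox transcription factor known in *Drosophila* from muscle and heart progenitors, ranged from 1.36 to 10.1 CPM in LatA with a median of 4.81. In MA it ranged from 0.133 to 2.39 CPM with a median of 1.27. It was higher in LatA in 10 of 11 animals, and outside male 1 the regions did not overlap. The log2FC was 2.02 ± 0.36 (SE, n = 11, edgeR adjusted p = 0.045) and 2.23 ± 0.30 without male 1 (edgeR adjusted p = 0.0053). Of the fits with an animal left out, those without male 1 and female 3 kept the call, with edgeR adjusted p-values up to 0.13 in the others.

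The other transcripts named by rule as higher in LatA have no product name here. XM_023060970.1 (LOC111426448) ranged from 0.772 to 2.88 CPM in LatA and from 0.199 to 0.839 CPM in MA. It was higher in LatA in all 11 animals, with a log2FC of 2.05 ± 0.24 (SE, n = 11, edgeR adjusted p = 0.0051) and of 2.09 ± 0.25 without male 1 (edgeR adjusted p = 0.0025), and was called in every fit with an animal left out. XM_023058120.1 had a log2FC of 1.44 ± 0.23 with medians of 2.55 and 0.864 CPM, and XM_023053771.1 (LOC111420729) 1.14 ± 0.17 with medians of 3.71 and 1.20 CPM. Both were higher in LatA in all 11 animals, and each kept its call in 4 of the 11 fits with an animal left out, those without male 1, male 5 and female 2 and a further one (male 4 and male 6), with edgeR adjusted p-values up to 0.094 and 0.067 in the others. Without male 1 their log2FC values were 1.44 ± 0.25 and 1.23 ± 0.17 (SE, n = 10, edgeR adjusted p = 0.022 and 0.0053).

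Transcripts higher in MA were detected in both regions. The unnamed XM_023057445.1 (LOC111424041) ranged from 3.75 to 13.2 CPM in MA with a median of 7.87, and from 0.411 to 3.13 CPM in LatA with a median of 2.01. MA and LatA did not overlap, male 1 included. The log2FC was -2.33 ± 0.30 (SE, n = 11, edgeR adjusted p = 0.011) and -2.52 ± 0.25 without male 1 (edgeR adjusted p = 0.000997), and the call held in all 11 fits with an animal left out.

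Of the transcripts whose best *Drosophila* hit is Toll-6, a receptor with leucine-rich repeats that helps to orient cell rearrangements in the *Drosophila* embryo, 2 were called higher in MA. XM_023052295.1 (LOC111419483) ranged from 3.56 to 15.6 CPM in MA with a median of 7.23, and from 1.33 to 5.90 CPM in LatA with a median of 2.05, and MA was higher in all 11 animals. XM_023052296.1 (LOC111419484) ranged from 2.32 to 14.5 CPM in MA with a median of 5.21, and from 0.716 to 5.86 CPM in LatA with a median of 1.33. MA was higher in 10 of 11 animals for the latter, male 1 being the exception with 2.32 and 2.42 CPM. These genes are next to each other in IU_Otau_3.0. The log2FC values were -1.74 ± 0.29 and -2.08 ± 0.37 (SE, n = 11, edgeR adjusted p = 0.034 and 0.046), and each was called in 2 of the 11 fits with an animal left out, those without male 1 and female 2, with edgeR adjusted p-values up to 0.093 and 0.12 in the others. Without male 1 they were -1.82 ± 0.32 and -2.29 ± 0.34 (SE, n = 10, edgeR adjusted p = 0.022 and 0.0088). Reads shared by such related copies could be divided between them by the counting.

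Homogentisate 1,2-dioxygenase (XM_023060909.1, LOC111426402), an enzyme of tyrosine breakdown, ranged from 2.37 to 9.55 CPM in MA with a median of 4.67, and from 1.08 to 5.28 CPM in LatA with a median of 1.79. MA was higher in all 11 animals, with a log2FC of -1.33 ± 0.15 (SE, n = 11, edgeR adjusted p = 0.0051) and of -1.44 ± 0.11 without male 1 (edgeR adjusted p = 0.00048), and all 11 fits with an animal left out kept the call. Male 1 had the highest LatA value, with 5.28 CPM in LatA and 5.80 CPM in MA. A transcript annotated by NCBI as histidine-rich glycoprotein-like, also marked as putatively restricted to the taxon (XM_023065013.1, LOC111429171) had medians of 29.1 CPM in MA and 8.13 in LatA and a log2FC of -1.57 ± 0.21 (SE, n = 11, edgeR adjusted p = 0.011), called in all 11 fits, and without male 1 it was -1.62 ± 0.23 (edgeR adjusted p = 0.0066). It too was higher in MA in every animal, although the ranges of the regions overlapped.

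Cuticular protein 49Ae (XM_023061219.1, LOC111426609) was higher in MA in all 11 animals, over a wide spread between animals. In females MA ranged from 0.399 to 4.73 CPM and LatA from 0.134 to 1.83 CPM, and in males MA ranged from 4.11 to 70.3 CPM and LatA from 0.742 to 11.7 CPM. The log2FC was -2.29 ± 0.30 (SE, n = 11, edgeR adjusted p = 0.011) and -2.11 ± 0.28 without male 1 (edgeR adjusted p = 0.0050), and the call held in all 11 fits with an animal left out.

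The remaining transcripts named by rule as higher in MA have no product name. XM_023045906.1 (LOC111414535), with medians of 51.8 CPM in MA and 25.0 in LatA, had a log2FC of -1.07 ± 0.11, and XM_023045312.1 (LOC111414125), with medians of 12.8 and 6.06 CPM, had -0.99 ± 0.11. Each was higher in MA in all 11 animals and called in all 11 fits with an animal left out (edgeR adjusted p = 0.0048 for each with all animals). Without male 1 they had -1.07 and -0.94 (edgeR adjusted p = 0.0020 and 0.0019). XM_023053613.1 had a log2FC of -1.71 ± 0.23, and of -1.89 ± 0.17 without male 1 (edgeR adjusted p = 0.00074), and lost its call in the fit without male 4 (edgeR adjusted p = 0.056), and male 4 stood far above the other animals in it, with 41.2 CPM in MA and 16.5 CPM in LatA against group medians of 0.932 and 0.279 CPM. XM_023047840.1, XM_023055978.1 (LOC111422761) and XM_023060242.1 (LOC111425952) had log2FC values of -0.93, -0.81 and -0.66, and each was called in only 1 of the 11 fits with an animal left out, the one without male 1, with -1.04, -0.78 and -0.72 (edgeR adjusted p = 0.0022, 0.046 and 0.011).

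The 16 called transcripts outside the rule, 9 higher in LatA and 7 higher in MA, had no name from the study's tables. The study listed 368 transcripts in its comparisons of these animals, of which 254 were tested here. Of the 254, 11 were called (4.33%), beside 0.295% of all transcripts tested. This is not independent evidence, since the 368 were chosen on the same libraries. Without male 1, 39 of the 368 were called, beside 146 of all 13478 transcripts tested in that fit (1.08%).

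**Figure D3:**
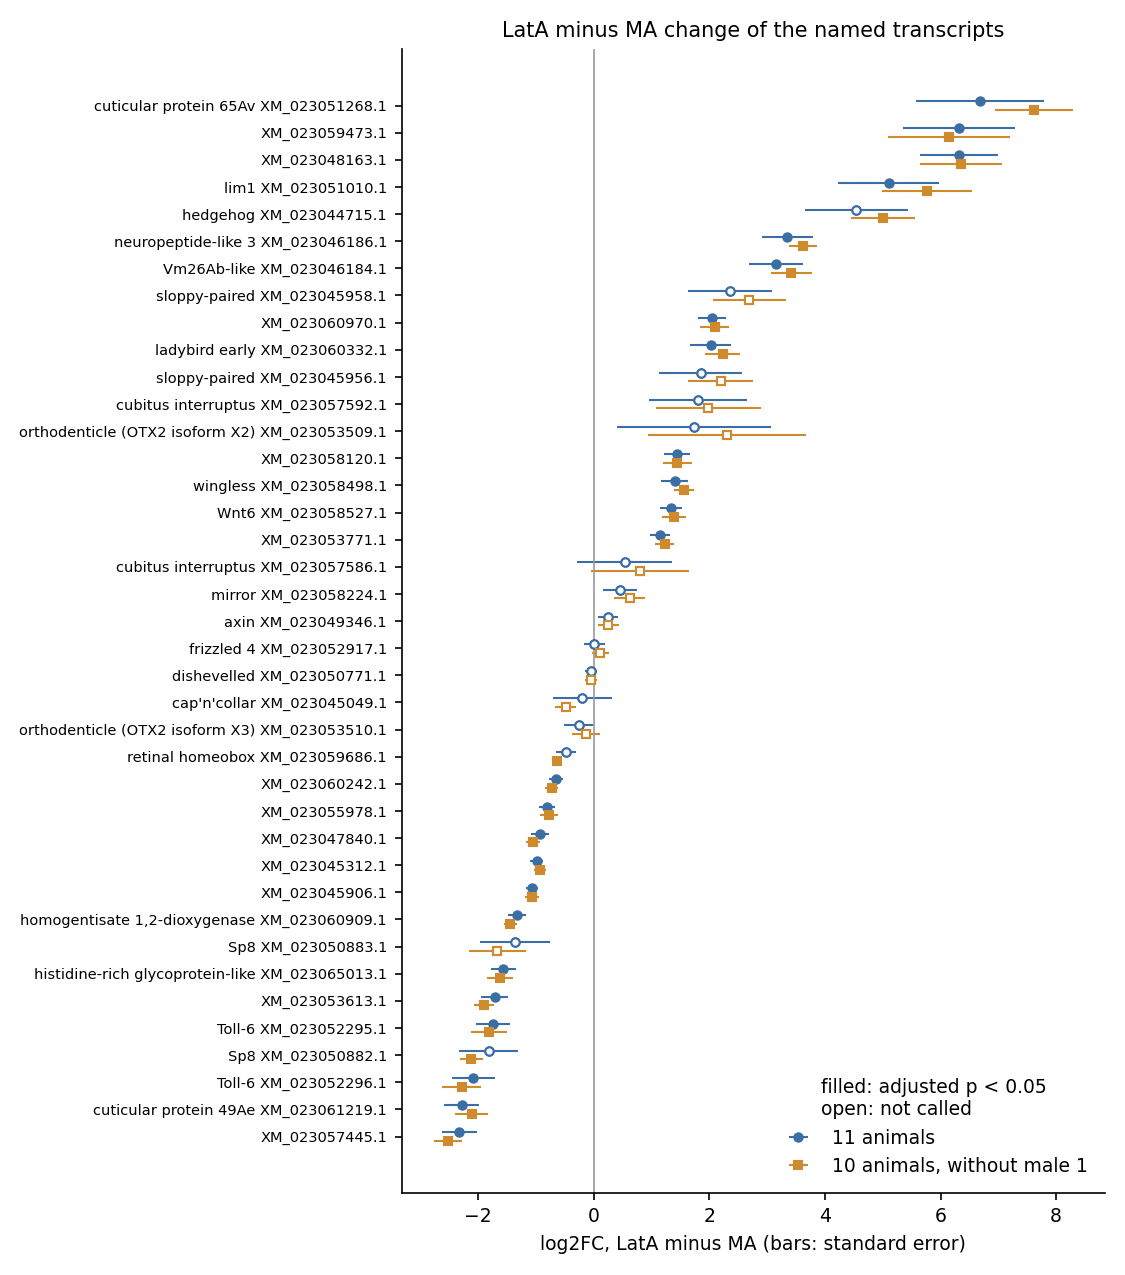
log2FC of LatA minus MA (horizontal axis) for the 39 tested transcripts named by rule, with all 11 animals (blue circles) and without male 1 (orange squares); bars are standard errors and open symbols were not called. *hedgehog*, *retinal homeobox* and 1 of the Sp8 transcripts are open with 11 animals and filled with 10, and no symbol changes side of 0.

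*hedgehog* (XM_023044715.1, LOC111413674), the ligand of its pathway, missed the threshold with all animals. It ranged from 0.176 to 2.84 CPM in LatA with a median of 2.35, and from 0 to 2.05 CPM in MA with a median of 0.0763. In male 1 the order was turned, with 0.176 CPM in LatA and 2.05 CPM in MA, and in the other 10 animals LatA ranged from 1.38 to 2.84 CPM and MA from 0 to 0.187 CPM. The log2FC was 4.55 ± 0.90 (SE, n = 11, edgeR adjusted p = 0.071) with male 1 and 5.01 ± 0.55 without it (edgeR adjusted p = 0.0019). By library, male 1 had 0.402 CPM in left LatA, 0 in right LatA and 2.14 in MA, where the other animals had at least 0.546 CPM in left LatA and 1.37 in right LatA. A fit of counts summed over the transcripts of each gene, of which *hedgehog* has 1, gave a log2FC of 4.32 ± 0.84 (edgeR adjusted p = 0.042).

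The transcripts of *cubitus interruptus*, the transcription factor at the end of that pathway, were not called. XM_023057592.1 had medians of 3.09 CPM in LatA and 1.49 in MA, and XM_023057586.1 2.63 and 2.43 CPM (edgeR adjusted p = 0.54 and 0.89). The hedgehog pathway list held these 3 transcripts, of which 0 were called with all animals and 1 without male 1.

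Sp8, a zinc finger transcription factor of appendage growth, was higher in MA in the animals other than male 1. XM_023050882.1 (LOC111418356) ranged from 0.536 to 22.5 CPM in MA with a median of 15.1, and from 1.48 to 10.9 CPM in LatA with a median of 4.26. Male 1 had the lowest MA value, 0.536 CPM, and the highest LatA value, 10.9 CPM, and in the other 10 animals MA started at 9.72 CPM and LatA ended at 7.35 CPM. The log2FC was -1.82 ± 0.50 (SE, n = 11, edgeR adjusted p = 0.23) with male 1 and -2.12 ± 0.20 without it (edgeR adjusted p = 0.00076). The sides of LatA differed within animals, as in female 2, with 0.0654 CPM on the left and 14.1 CPM on the right. Another Sp8 transcript, XM_023050883.1, had medians of 4.09 CPM in MA and 1.63 in LatA and was not called without male 1 either (edgeR adjusted p = 0.17). With all animals, the sum over the transcripts of the gene had a log2FC of -1.66 ± 0.42 and was not called (edgeR adjusted p = 0.12).

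Of the other head genes that the study names, *retinal homeobox* (XM_023059686.1, LOC111425572) had medians of 62.9 CPM in MA and 43.0 in LatA and was higher in MA in 10 of 11 animals. Its log2FC was -0.48 ± 0.18 (SE, n = 11, edgeR adjusted p = 0.43), and -0.64 ± 0.09 without male 1 (edgeR adjusted p = 0.0069). *cap'n'collar* (XM_023045049.1, LOC111413909), a factor of the labrum and mandible in *Drosophila*, ranged from 0 to 73.2 CPM in MA and from 14.4 to 88.2 CPM in LatA. The 0 was the MA library of male 1, and the other 10 MA libraries held 48.0 to 73.2 CPM. It was not called with male 1 (edgeR adjusted p = 0.95) or without it (edgeR adjusted p = 0.28).

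The *sloppy-paired* transcripts, which encode forkhead factors, had medians of 4.43 CPM in LatA and 0.939 in MA (XM_023045958.1) and of 3.47 and 0.864 CPM (XM_023045956.1). Each was higher in LatA in 10 of 11 animals and was not called (edgeR adjusted p = 0.31 and 0.46, and 0.080 and 0.11 without male 1). *mirror* (XM_023058224.1), of the Iroquois family, had medians of 2.14 and 1.33 CPM and was not called (edgeR adjusted p = 0.69). The *orthodenticle* transcripts were not called: XM_023053510.1 had medians of 8.20 CPM in LatA and 7.04 in MA, XM_023053509.1 had 1.36 and 0.401 CPM, and XM_023053571.1 held 0 counts in either region, which allows up to 3 counts.

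In the list of head patterning transcription factors, 32 of 50 named transcripts were tested, 1 was called higher in LatA and 0 higher in MA, beside 0.155% and 0.14% of all transcripts tested. Without male 1, 3 were called higher in LatA and 2 higher in MA, beside 0.505% and 0.579%. *lim1* stands outside this list because its name did not match the list's pattern. The 3 were *ladybird early*, *hairy* and *unc-4*, a homeobox gene of motor neuron identity in *Drosophila*, and the 2 were *retinal homeobox* and Sp8. The *unc-4* transcript XM_023048106.1 was chosen after its values were seen; it ranged from 0.0440 to 6.27 CPM in LatA and from 0 to 0.357 CPM in MA, and the highest MA value was that of male 1.

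In the list of cuticle proteins, 23 of 29 were tested, 1 was called higher in LatA (65Av) and 1 higher in MA (49Ae), beside 0.155% and 0.14% of all transcripts tested. The median log2FC of the list was -0.41, beside 0.07 over all transcripts tested. Without male 1, 1 was called higher in LatA and 7 higher in MA, beside 0.505% and 0.579%, the added ones being 3 Lcp65Ac transcripts, 62Bc, 76Bb and 49Aa. Cuticular protein 62Bc (XM_023047530.1) had medians of 52.4 CPM in MA and 6.20 in LatA, and the Lcp65Ac transcript XM_023064026.1 had 18.5 and 3.12 CPM. Each was higher in MA in 10 of 11 animals, male 1 being the exception. Without male 1 their log2FC values were -2.88 ± 0.26 and -3.08 ± 0.28 (SE, n = 10, edgeR adjusted p = 0.00074 for each).

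No member was called in the lists of other signalling ligands and receptors (7 tested), chitin synthesis (3), cuticle tanning (3), Osiris proteins (2), the ecdysone response (1) or odorant-binding proteins (2). Of 19 muscle marker transcripts with a name, 17 were tested and 0 were called, and their summed level was 26.5 to 477 CPM in LatA and 20.3 to 1566 CPM in MA, higher in LatA in 9 of 11 animals. The 8 photoreceptor and eye markers summed to 0.159 to 2.97 CPM in LatA and 0.0782 to 0.803 CPM in MA, higher in LatA in 10 of 11 animals, and 3 of them were at 0 in every MA profile. Their medians were 1.06 CPM in LatA and 0.273 CPM in MA. The 2 neuron markers summed to 1.56 to 4.56 CPM in LatA and 0.770 to 4.28 CPM in MA, higher in LatA in 9 of 11 animals, and 1 was at 0 throughout. The transcript taken as hemocyte marker, prophenoloxidase 2, ranged from 0 to 7.22 CPM in LatA and from 0 to 6.76 CPM in MA. It was higher in LatA in 8 of 11 animals and is also in the cuticle tanning list. The transcript taken as tracheal marker, *dumpy*, ranged from 13.8 to 111 CPM in LatA and from 11.5 to 332 CPM in MA. It was higher in LatA in 3 of 11 animals. No fat body marker had a name. Markers were matched by product name, so the muscle list also holds *ankyrin 2* and the eye list the Dopamine/Ecdysteroid receptor. Whether the epithelium itself makes any of the markers was not tested, nor was the part of these cells in the results.

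The sexes did not differ detectably in the change from MA to LatA. For the male minus female difference of the log2FC, edgeR called 0 of 13554 transcripts (0%), with 600 (4.43%) at an unadjusted p under 0.05. Fitted apart, the 6 males gave 0 calls of 12537 (0%) in edgeR with 707 (5.64%) at an unadjusted p under 0.05, and the 5 females gave 3 calls of 12836 (0.0234%) with 1090 (8.49%). In the 5 males other than male 1, a fit chosen after seeing the data, edgeR called 59 of 12350 (0.478%), 10 of the 40 among them. Without male 1 the test of the male minus female difference again called 0, with 581 of 13478 at an unadjusted p under 0.05. All 40 transcripts kept their direction in each sex. The left LatA libraries alone gave 15 calls and the right ones alone 9, of which 12 and 8 were among the 40, and all 40 kept their direction on each side. Because the 40 were chosen on both sexes and both sides of these animals, their agreement by sex or side is a description.

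More transcripts separated the lateral and medial regions in the posterior head. With the same test on LatP and MP of the same animals, edgeR called 3086 of 14170 transcripts (21.8%), and 102 (0.72%) at the stricter thresholds. Of the 40 anterior transcripts, 38 were tested there and 23 were called, 19 in the same lateral to medial direction and 4 in the opposite one. The difference of the changes, LatA minus MA less LatP minus MP, was tested in a joint fit of all 4 regions and called for 1130 of 14792 transcripts (7.64%) in edgeR and for 14 of the 40, of which *lim1* was too low to be tested in the posterior head alone. Without male 1 it was called for 1193 of 14718 (8.11%) and again for 14 of the 40. Since the anterior libraries enter that test too, the 14 are a description.

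**Figure D4:**
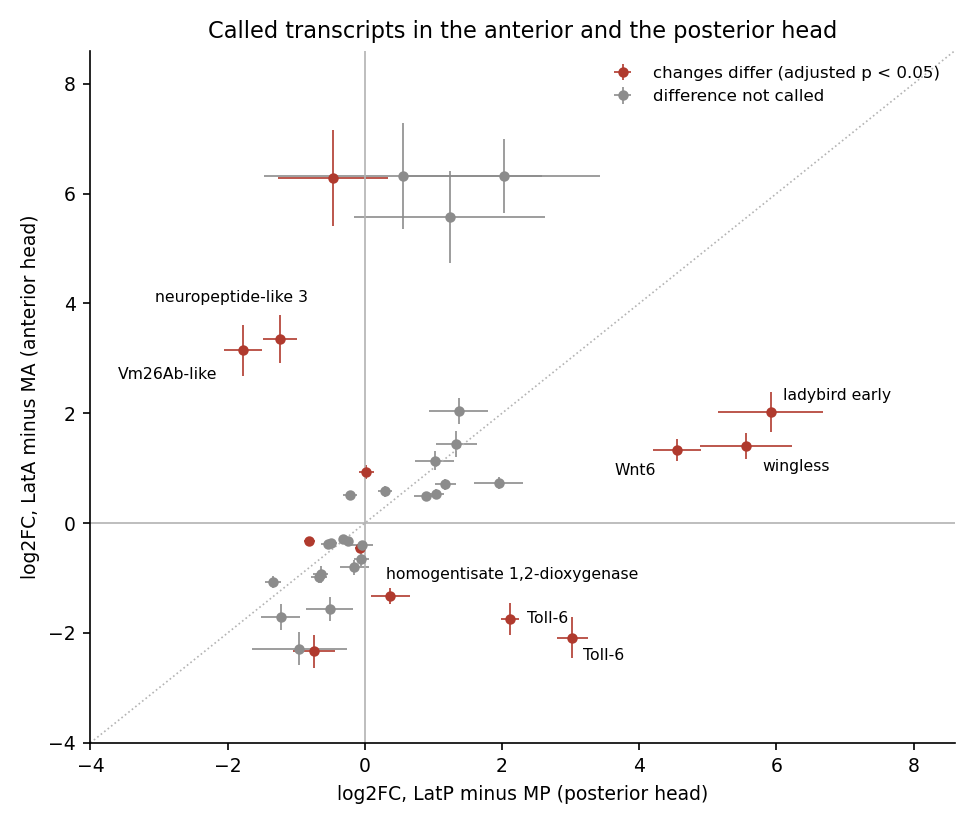
log2FC of LatA minus MA (vertical axis) against log2FC of LatP minus MP (horizontal axis) for the 38 called transcripts tested in the posterior head; bars are standard errors, the dotted line marks equal changes, and red points have a difference of the changes with an edgeR adjusted p under 0.05. *Wnt6* and *wingless* lie right of the dotted line at 4.56 and 5.55 in the posterior head. Of the 38 points, 31 have the same sign in both heads and 7 opposite signs, and the 4 of those also called in the posterior head are neuropeptide-like 3 and Vm26Ab-like at the upper left and the Toll-6 pair at the lower right.

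*Wnt6* and *wingless* were higher laterally in the posterior head too, with lower medians there than in the anterior head. *Wnt6* ranged from 5.46 to 31.3 CPM in LatP with a median of 8.37, and from 0.0870 to 1.18 CPM in MP with a median of 0.353. By median its order from high to low was LatA, MA, LatP and MP, with LatP and MA overlapping. *wingless* ranged from 1.82 to 4.72 CPM in LatP and from 0 to 0.364 CPM in MP, and LatP and MA overlapped again. The posterior log2FC was 4.56 ± 0.35 for *Wnt6* and 5.55 ± 0.67 for *wingless* (SE, n = 11, edgeR adjusted p = 9.2e-06 and 0.00016), and in the joint fit the difference of the changes was -3.28 ± 0.41 and -3.77 ± 0.55, and -3.14 ± 0.43 and -3.50 ± 0.55 without male 1.

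*ladybird early* had a median of 0.604 CPM in LatP, and MP held 2 counts in all against 299 in LatP, a depth-scaled ratio of 61.6 with a 95% exact interval of 16.9 to 511. The *sloppy-paired* transcripts, not called in the anterior head, ranged from 4.64 to 9.54 CPM and from 2.94 to 12.5 CPM in LatP and reached at most 0.172 and 0.364 CPM in MP. Their medians in LatP, 6.02 and 4.21 CPM, stood beside 4.43 and 3.47 CPM in LatA.

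The neuropeptide-like 3 transcript went in opposite directions in the anterior and the posterior head. It ranged from 104 to 1106 CPM in LatP with a median of 260, and from 346 to 1212 CPM in MP with a median of 592. In females LatP ranged from 104 to 170 CPM, overlapping MA at 68.4 to 136 CPM, and MP from 346 to 1065 CPM. In males LatP ranged from 260 to 1106 CPM and MP from 440 to 1212 CPM. The study lists this transcript as a medial posterior core gene of females only. A sex difference of the posterior change was not tested. The posterior log2FC was -1.23 ± 0.25 (SE, n = 11, edgeR adjusted p = 0.0041), where the anterior one was 3.35, and the difference was 4.24 ± 0.55, and 4.62 ± 0.47 without male 1. Vm26Ab-like did the same, with medians of 240 CPM in LatP and 795 CPM in MP and a posterior log2FC of -1.78 ± 0.28 (SE, n = 11, edgeR adjusted p = 0.00079). Of the 4 regions MA was thus the lowest in median for both, and LatA the highest.

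The Toll-6 transcripts went the other way. XM_023052295.1 ranged from 8.45 to 39.0 CPM in LatP with a median of 20.1 and from 2.55 to 7.15 CPM in MP with a median of 3.74, and LatP and MP did not overlap. XM_023052296.1 had medians of 13.9 CPM in LatP and 1.83 in MP. Their posterior log2FC values were 2.12 ± 0.13 and 3.03 ± 0.22 against -1.74 and -2.08 in the anterior head, and the differences were -3.94 ± 0.40 and -5.12 ± 0.48 (SE, n = 11), and -4.01 ± 0.44 and -5.34 ± 0.50 without male 1. A further Toll-6 transcript chosen after its values were seen, XM_023044511.1, had 2.10 in the posterior head and -1.81 in the anterior one, where it missed the threshold (edgeR adjusted p = 0.053, and 0.030 without male 1).

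**Figure D5:**
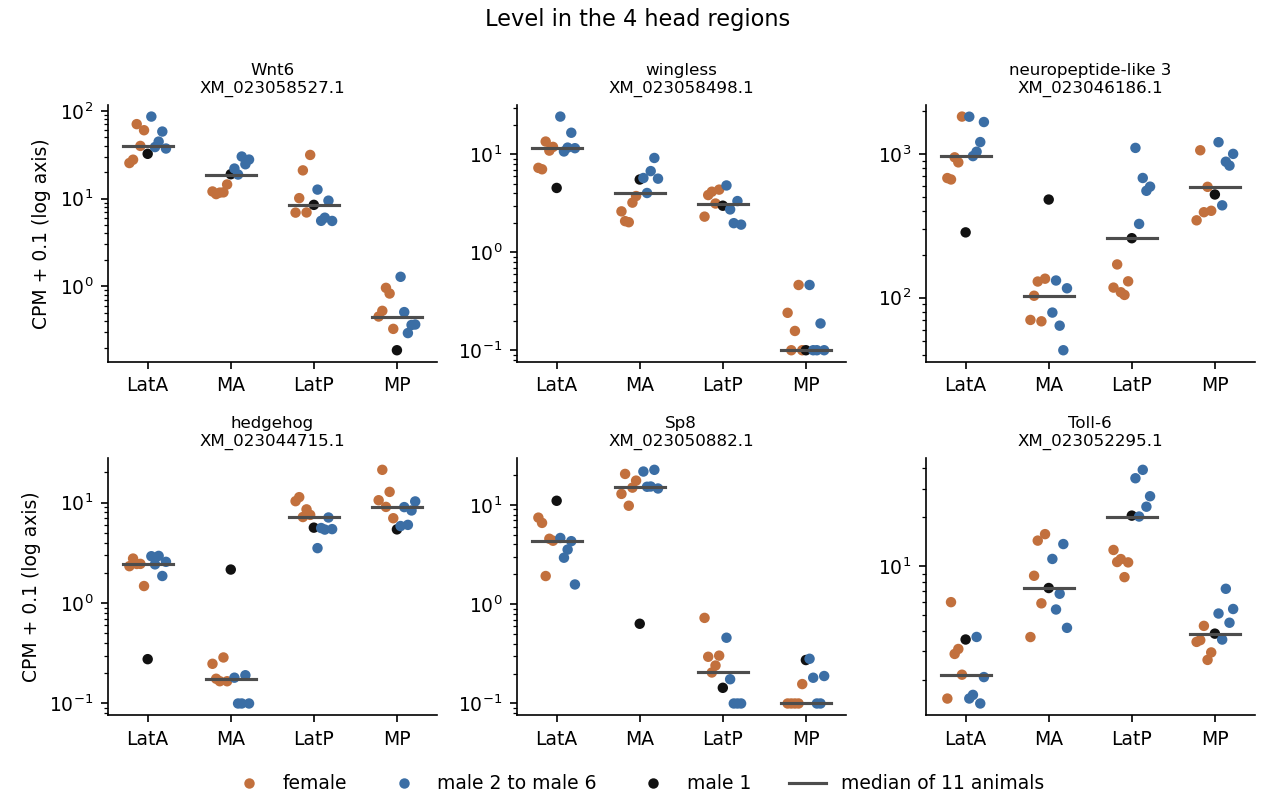
Level of 6 transcripts in LatA, MA, LatP and MP (vertical axis, CPM + 0.1, log axis); points are the 11 animals, with females in orange, males in blue and male 1 in black, and lines are medians. The median of *Wnt6* is highest in LatA and lowest in MP, *hedgehog* is lowest in MA with male 1 at 2.05 CPM there, Sp8 is at or near 0 in LatP and MP, and Toll-6 is highest in LatP.

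*hedgehog* had its highest medians in the posterior head, 7.0 CPM in LatP and 8.90 in MP, and its posterior log2FC was -0.42 ± 0.12 (SE, n = 11, edgeR adjusted p = 0.021). MA alone was near the floor, apart from male 1, and the difference of the changes was 4.12 ± 0.73, and 5.41 ± 0.39 without male 1. The Sp8 transcript XM_023050882.1 had medians of 0.105 CPM in LatP and 0 in MP and was too low to be tested there. Homogentisate 1,2-dioxygenase had medians of 0.944 CPM in LatP and 0.637 in MP, and its posterior log2FC of 0.37 ± 0.29 was not called (edgeR adjusted p = 0.41).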

How the data were processed

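The authors trimmed reads with Trimmomatic 0.32, aligned them with Bowtie2 2.3.2 to the gene models of the genome and deposited RSEM 1.3.0 expected counts of 23725 transcripts in 66 libraries, which were rounded here. Left and right LatA counts were summed within each animal. Transcripts over 1 CPM in at least 2 of 22 profiles were fitted with edgeR 4.0.16 in R 4.3.3 (TMM, quasi-likelihood F-test, Benjamini-Hochberg), with the animal as block. The replicate number names 1 animal, and its LatA and MA profiles deviated from their group means together in 11 of 11 animals (r from 0.207 to 0.619). In simulated data, changes were placed only in transcripts with a mean over 2 CPM. Among these, the fit recovered 68% of changes of 1, 90% of 2 and 96% of 3 on the log2 scale. In that run, with 50 changed transcripts at each of 4 sizes, 9 unchanged ones were called. Recovery of transcripts at lower levels was not simulated. No 2 libraries of a group agreed within sampling noise. Libraries carried no molecular identifiers, so floors and intervals cover counting error only.

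In each direction, the 12 called transcripts of largest change that moved the same way in at least 10 of 11 animals were named. Also named were called members of 16 lists and a chosen part of the head genes the study names. That part leaves out *optix*, *knirps* and *crocodile*, among others. The members, lists and tests were chosen with earlier results of these data known. Names come from the study's tables, and symbols and gene order from IU_Otau_3.0, which gave a gene for 15057 transcripts. The alternatives were DESeq2 1.42.0 (local dispersion trend), RLE scaling, other filters, no block, each side or sex alone, genes in place of transcripts, equal depth and leaving out each animal.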

Additional observations from a re-analysis of the deposited data

Results flagged for a closer look

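The ratio of LatA to MA was taken per animal on the log2 scale after adding 0.5 CPM, and library positions and totals were looked at too. Chance gives about 1 in 20 for independent normal values, but the groups here share the same animals. In 14 of 90 groups of values (15.6%) the highest or lowest sample stood far from the others. Male 1 was that sample in 10 of the 14. Its log2 ratio was -0.84 for cuticular protein 65Av, -0.76 for neuropeptide-like 3, -0.33 for Vm26Ab-like, -0.24 for *ladybird early* and -1.92 for *hedgehog*, each the lowest of the males. It was 0.23 for XM_023047840.1, 1.27 for *retinal homeobox*, 6.31 for *cap'n'collar* and 3.46 for the Sp8 transcript XM_023050882.1, each the highest of the males. The MA library of male 1 lay at 1.01 on the axis from MA to LatA. Female 3 stood apart with a log2 ratio of 2.52 for *wingless* and of -1.70 for *cap'n'collar*, male 5 with -0.68 for *dishevelled*, and the MA library of female 4 with a total of 15.1, in units of 1000000 counts. The cause was not tested.

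The lateral to medial change differed between the anterior and the posterior head, by the edgeR test of that difference, for 12 named transcripts. Only named transcripts that were also tested in the posterior head alone were counted, which leaves out *lim1*. On the log2 scale the anterior change was above the posterior one by 4.24 for neuropeptide-like 3, 4.66 for Vm26Ab-like and 4.12 for *hedgehog*. The difference was -3.28 for *Wnt6*, -3.77 for *wingless*, -3.34 for *ladybird early*, -4.87 and -3.83 for the *sloppy-paired* transcripts, -5.12 and -3.94 for the Toll-6 transcripts, -1.61 for homogentisate 1,2-dioxygenase and -1.58 for XM_023057445.1.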

How the results depend on the processing

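The count of 40 called transcripts (21 higher in LatA, 19 in MA) moved with most choices. Without the replicate block that pairs the regions of an animal it was 19 (13 and 6), and 430 in the test of the anterior against the posterior change and 1086 for LatP against MP. It was 558 (357 and 201) with DESeq2, 15 (6 and 9) with left LatA alone, 9 (3 and 6) with right LatA alone, 80 (36 and 44) with the sides as separate replicates, 66 (34 and 32) with transcripts of a gene summed and 81 (47 and 34) with all 4 regions in 1 fit, an alternative chosen after seeing the data. Females alone gave 3 (1 and 2) and males alone 0 (0 and 0), and males other than male 1, a fit chosen after seeing the data, 59 (13 and 46). With no expression filter 10 were higher in MA, an absolute log2FC over 1 left 22 (8 in MA), and the study's thresholds left 0 (0 and 0), and 102 for LatP against MP. With 1 animal left out the count ranged from 12 to 146, with 4 to 68 higher in LatA and 7 to 78 higher in MA, and the highest of each was without male 1. RLE scaling gave 42 and equal depth 36, and fewer samples enter the fits by side, by sex and with an animal left out. For the other moves the cause was not tested.

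All 40 kept their sign in the alternatives by side, sex, tool, scaling, block and depth, which reuse the animals that the 40 were chosen on. Of the 24 called transcripts named, XM_023059473.1 changed sign (-0.037 with transcripts of a gene summed). Among those not called, *cubitus interruptus* XM_023057586.1 had -2.29 with right LatA alone and -0.074 in males, *orthodenticle* XM_023053509.1 -0.086 by gene, *cap'n'collar* 0.20 in males, and *axin* -0.016 in females. *frizzled 4* had -0.018 with RLE scaling, -0.012 with DESeq2, -0.0082 with left and -0.060 with right LatA alone, -0.043 with the sides apart, -0.22 in males, -0.036 in males other than male 1 and -0.0032 by gene, and from -0.096 to 0.11 with an animal left out. *dishevelled* had 0.015 with right LatA alone, 0.0145 in females, 0.084 by gene and from -0.11 to 0.011 with an animal left out. MA, which has 1 library per animal against 2 of LatA, sets the depth limit for transcripts near its floor.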

Other observations

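Further transcripts, picked after their values were seen among those called only without male 1, are given as values. Of those with a higher level in LatA, *Pox meso* (XM_023045626.1), a paired-box factor of muscle founders in *Drosophila*, ranged from 0.132 to 8.32 CPM in LatA and from 0 to 2.06 CPM in MA, and had a log2FC of 4.00 ± 0.78 (SE, n = 10, edgeR adjusted p = 0.041). A transcript annotated as paired mesoderm homeobox protein 2-like (XM_023044756.1) had medians of 4.54 CPM in LatA and 0.125 in MA and a log2FC of 4.50 ± 0.73 (SE, n = 10, edgeR adjusted p = 0.015). The muscle markers themselves were not called in either fit, and their summed level was higher in LatA in 9 of 11 animals. A part of muscle cells in these values was not tested.

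Of those with a higher level in MA, an NADPH oxidase transcript (XM_023053930.1), from the family of enzymes that make reactive oxygen species, had medians of 50.9 CPM in MA and 36.3 in LatA and a log2FC of -0.85 ± 0.13 (SE, n = 10, edgeR adjusted p = 0.012). A larval translucida transcript (XM_023048998.1) had medians of 9.41 and 2.77 CPM and a log2FC of -1.64 ± 0.25 (SE, n = 10, edgeR adjusted p = 0.011). With male 1 none of these 4 was called, with edgeR adjusted p-values from 0.13 to 0.51.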
